A study of Mus musculus with 23 samples.

Results

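The comparison described here set mouse metaphase II (MII) oocytes grown and matured in culture against MII oocytes taken from animals, gene by gene. A gene was included where its value was at least 1 FPKM (fragments per kilobase of transcript, scaled to the number of mapped fragments) in either MII group, which left 10324 genes of the 22784 in the deposited table. The rule used only the level and not the difference. Just inside it lay Lypd6b, at 1.00 FPKM in vitro, and Xlr5c, at 1.00 FPKM in vivo. Just outside it lay Fau, at 0.99986 FPKM in vitro and 0.555 FPKM in vivo.

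The study sequenced poly(A) RNA of 23 samples of 8 kinds, of which 3 were in vitro MII oocytes and 3 were in vivo MII oocytes. The in vitro oocytes came from primordial germ cell-like cells (PGCLCs) of C57BL/6 X 129 strain, made from embryonic stem cells by way of female EpiLCs (epiblast-like cells). They were joined with gonadal somatic cells of E12.5 female embryos (5000 and 50000 cells) and cultured as a reconstituted ovary for 21 days. Part of that culture was with the estrogen receptor antagonist ICI182780. Follicles were then grown for 11 days in all, the first 2 of them with BMP15 and GDF9, with FSH in the medium, and matured for 16 hours with FSH, EGF and hCG. The in vivo oocytes were from B6D2F1 females aged 8 weeks. Each MII library was made from 99 to 134 oocytes. Secondary follicle oocytes are used below as the earlier stage: from the same culture at the end of the reconstituted ovary, and from B6D2F1 females aged 8 days. Culture and animal differed in strain at both stages, so strain and route cannot be told apart. The source label of the in vitro MII samples speaks of secondary follicle oocytes, while their cell type label and title give MII oocytes.

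The table held 1 pooled value per gene and group. No spread between samples could be computed, no difference below has a standard error or a p-value, and the number of reads is unknown. "Higher" and "lower" therefore describe these pooled values only.

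An MII oocyte is the egg at ovulation, arrested at the second meiotic metaphase until sperm entry. It makes almost no new RNA. During growth it stores messages with short poly(A) tails, and during meiotic maturation some of these are lengthened and translated while many others are shortened and destroyed. The balance is set in part by sequences in the 3' untranslated region (3'UTR), among them the U-rich cytoplasmic polyadenylation element that the protein CPEB1 binds. A poly(A)-selected library can therefore reflect tail length as well as the amount of a message.

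Oocyte genes were high in both MII columns. Of the 10 genes with the highest FPKM in each column 9 were the same, and of the 100 highest 87 were the same. Zbed3, which encodes a protein tied to the subcortical maternal complex, led both columns with 13848 FPKM in vitro and 28436 FPKM in vivo. H1foo, the oocyte linker histone, followed with 11200 FPKM in vitro and 18049 FPKM in vivo. Gdf9, a growth factor that oocytes secrete, was at 6768 FPKM in vitro and 11132 FPKM in vivo. Mos, the kinase that holds the MII arrest, was at 1204 FPKM in vitro and 2217 FPKM in vivo, and stood at 287% of its secondary follicle value in vitro and 603% in vivo.

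The columns differed in their sums, which was the first fact that bore on every difference. The in vitro column summed to 616260 FPKM and the in vivo column to 975407 FPKM, a ratio of 1.58 or 0.66 on the log2 scale. The secondary follicle columns summed to 349451 and 349772 FPKM. Differences are therefore given as culture minus animal on the log2(FPKM + 1) scale, first as deposited and then after both MII columns were scaled to an equal sum. This scale understates the change of genes with low values. The threshold for calling a gene higher or lower was a 2-fold difference.

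As deposited, 1772 genes (17.2% of those compared) were higher in culture and 1346 (13.0%) were lower. With equal sums, 3093 genes (30.0%) were higher and 228 (2.21%) lower. Equal sums raise the in vitro values and reduce the in vivo values, so no difference moves down. By construction, all 1772 were therefore also higher with equal sums, and all 228 were also lower as deposited. Past 2-fold under both scalings were thus 1772 (17.2%) and 228 (2.21%). The first is the higher count as deposited and the second the lower count with equal sums. The counts below are of these genes unless stated otherwise, so higher and lower counts rest on different scalings. A further 1118 genes were lower as deposited and within 2-fold with equal sums. The median difference was -0.12 as deposited and 0.44 with equal sums, so its sign rests on the scaling. At the secondary follicle, 248 of 11151 genes (2.22%) were higher in culture and 94 (0.843%) were lower, under both scalings.

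**Figure D1:**
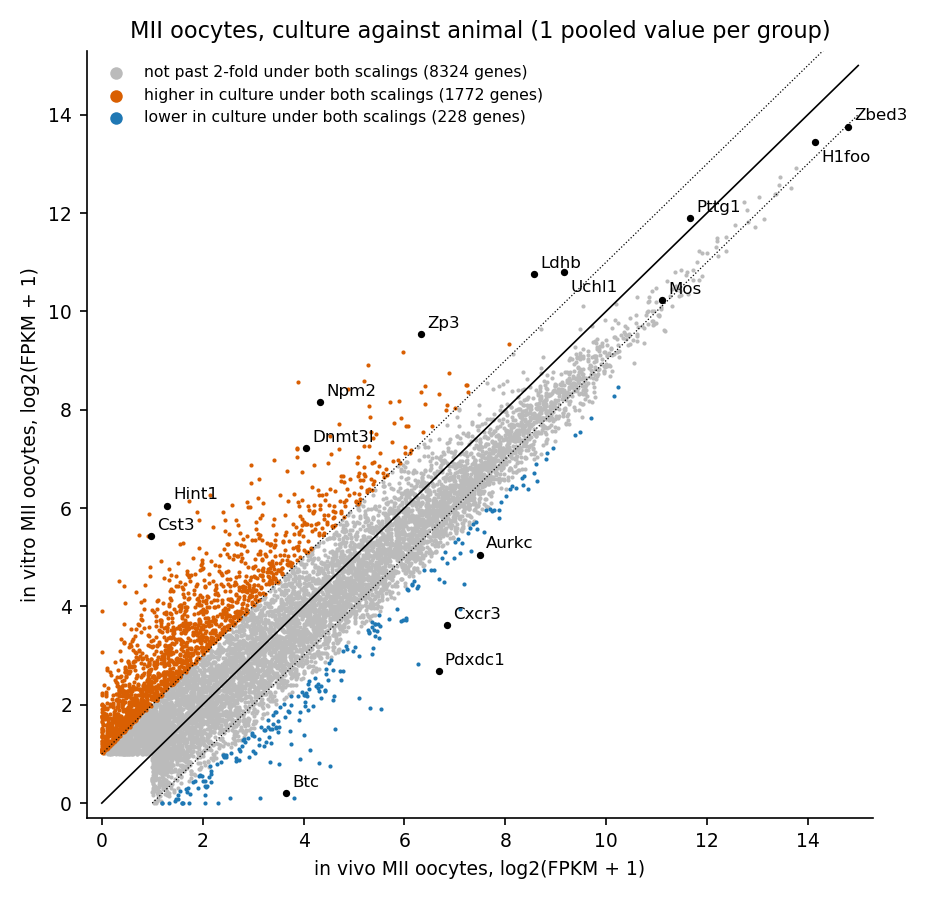
Each point is a gene, with its in vivo MII value on the x axis and its in vitro MII value on the y axis, both as log2(FPKM + 1) of the deposited pooled values. The solid line marks equal values and the dotted lines 2-fold; the abundant genes run as a narrow band below the solid line, and 1772 genes, mostly of lower in vivo level, lie above the upper dotted line.

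The difference changed with the abundance of a message at MII. Among 2312 genes whose higher MII value was from 1 to 3 FPKM, the median was 0.41 as deposited and 0.79 with equal sums. Among 1738 genes from 30 to 100 FPKM it was -0.48 and 0.17. Among 128 genes at 1000 FPKM or more it was -0.91 and -0.25, and their quartiles as deposited were -1.11 and -0.73. The most abundant messages thus formed a narrow group below the in vivo values as deposited, and the sign of the median from 30 to 100 FPKM turned with the scaling. Over the same classes the secondary follicle medians lay between -0.01 and 0.07.

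Ordered by their level at the secondary follicle, the genes ran the other way. The 967 genes under 1 FPKM in both secondary follicle columns had a median MII difference of -0.30 as deposited and 0.16 with equal sums. The 2189 genes at 30 to 100 FPKM there had medians of 0.17 and 0.78, with 605 higher and 14 lower. The 22 genes at 1000 FPKM or more had medians of 1.67 and 2.33, with 14 higher and 0 lower. Messages that are abundant in the growing oocyte were thus more often higher in cultured eggs, while messages that are abundant in the egg itself were not.

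**Figure D2:**
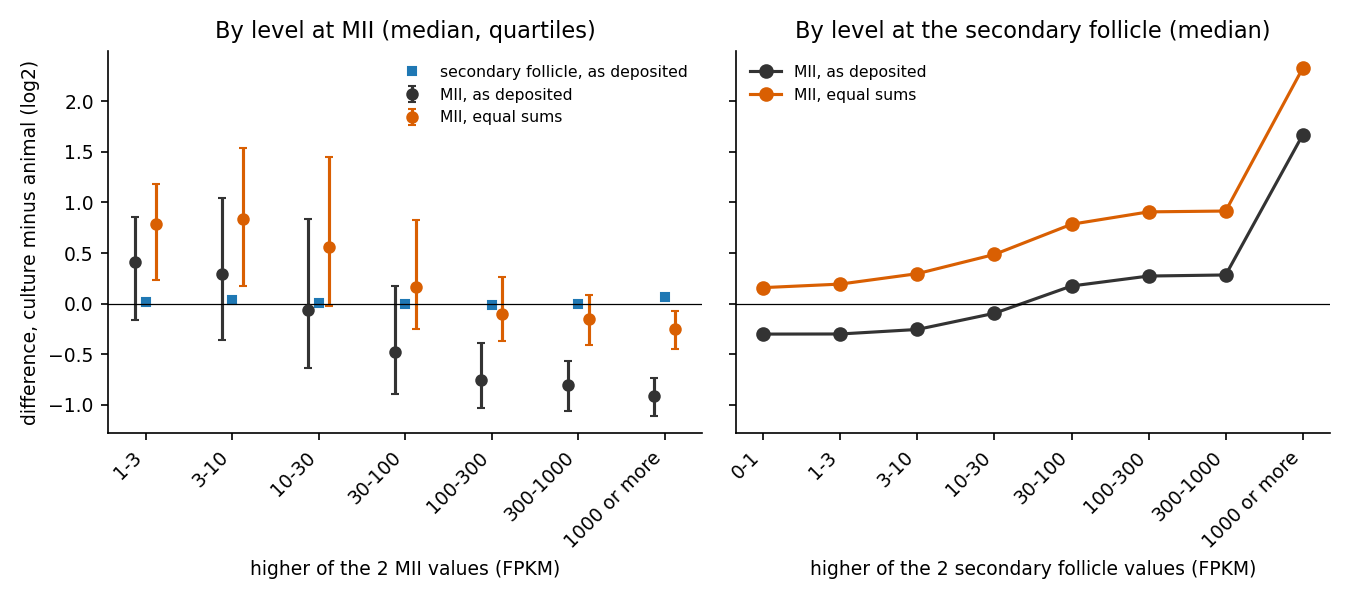
The y axis is the difference, culture minus animal, in log2 units. The left panel gives medians and quartiles of the MII difference by the higher of the 2 MII values, with secondary follicle medians as squares, and the right panel gives medians by the higher of the 2 secondary follicle values: the MII medians fall from 0.41 to -0.91 as deposited on the left and reach 1.67 on the right.

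The passage of messages from the secondary follicle to MII was read directly for 1269 genes with at least 50 FPKM in both secondary follicle columns and less than a 1.5-fold difference between them. Their MII value had a median of 60.4% of the secondary follicle value in vitro and 41.9% in vivo. The medians hid a wider gap at the low end. Of these genes 378 stood below 10% in vivo and 139 in vitro, with 138 below it in both. Below 5% stood 254 genes in vivo and 37 in vitro, and all 37 were below it in both. The 378 genes had a median of 3.34% in vivo and 13.4% in vitro. They were chosen by their in vivo value, so the lower in vivo median follows in part from that choice. Most messages under 10% in vivo were thus above it in vitro, at a share still well below the earlier value.

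At the upper end, 356 genes stood above 200% of their secondary follicle value in vivo and 313 in vitro, with 297 above it in both. When each column was taken as a share of its own sum, the medians were 34.3% in vitro and 15.0% in vivo, and 279 genes in vitro and 559 in vivo stood below 10%. The in vitro percentage was above the in vivo one for 735 of 1269 genes as deposited and for 976 as shares. These percentages compare FPKM of separate libraries and do not measure RNA per oocyte.

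**Figure D3:**
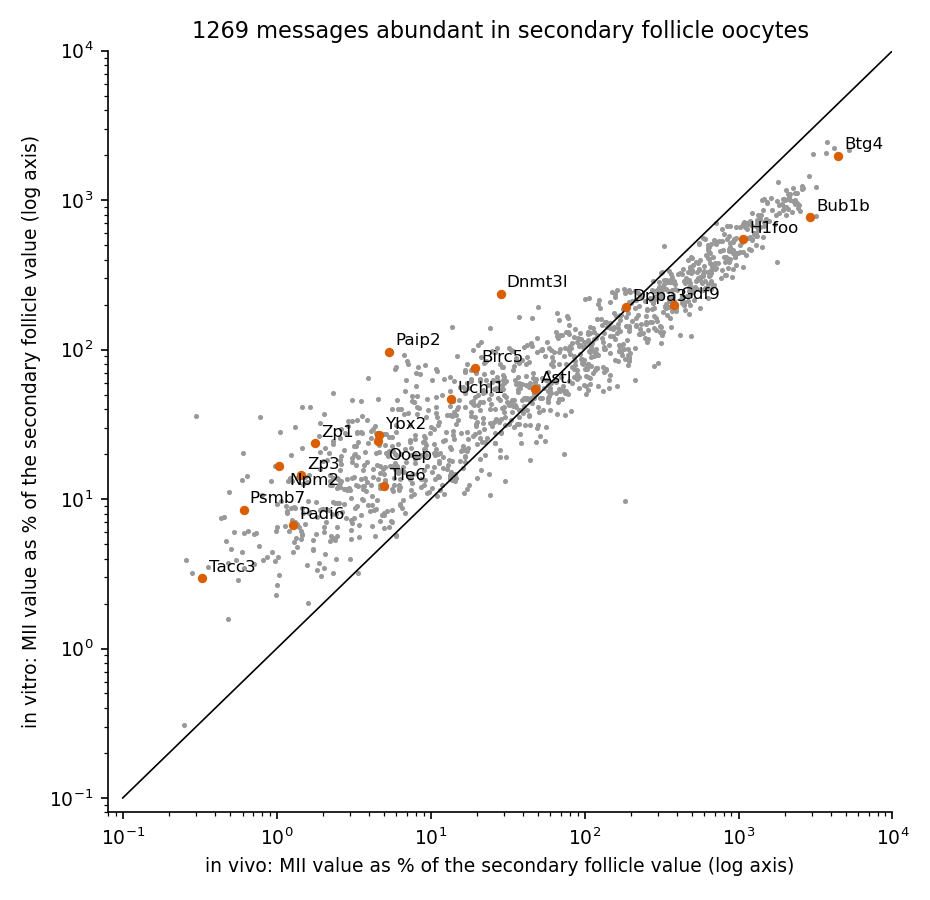
Each point is 1 of 1269 genes with at least 50 FPKM in both secondary follicle columns, with its MII value as a percentage of the secondary follicle value in vivo (x axis) and in vitro (y axis), both axes logarithmic. The line marks equal percentages; at the lower left the points lie above it, as for Npm2 at 1.03% in vivo and 16.7% in vitro, and at the upper right below it, as for Bub1b at 2902% in vivo and 769% in vitro.

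Some messages had nearly left the in vivo column. Of 5405 genes with at least 10 FPKM in both secondary follicle columns, 695 were under 1 FPKM in vivo at MII and 161 in vitro, with 145 under it in both. In vivo 17 of them were listed at 0, and in vitro none was. Ndufc1, a subunit of respiratory complex I, was at 33.9 and 39.6 FPKM in the secondary follicle oocytes (in vitro and in vivo), at 7.36 FPKM in the in vitro MII oocytes and listed at 0 in the in vivo MII oocytes. Pdcd5, a protein tied to apoptosis, was at 12.9 and 25.4 FPKM in the secondary follicle oocytes, at 2.98 FPKM in the in vitro MII oocytes and listed at 0 in vivo. Other such genes were Rps19, Hint2, Mgmt, Glrx3 and Pnldc1. A value listed at 0 can be a failed estimate, so no fold is given.

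Transcript structure went with the difference. For 9589 of the compared genes (92.9%), a coding transcript of the symbol was taken from GENCODE M21 (GRCm38), the APPRIS principal one where there was one, then one in CCDS, then the longest. The median length was 2163 bases for genes higher in culture, 3193 bases for genes not past 2-fold and 3544 bases for genes lower in culture. The 283 transcripts under 800 bases had a median MII difference of 0.74 as deposited and 1.21 with equal sums, and 43.1% of them were higher. The 1002 transcripts of 6500 bases or more had medians of -0.45 and 0.13, and 5.69% were higher. In the same classes the secondary follicle medians were 0.03 and -0.17.

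The length pattern was also seen at equal abundance. At a mean MII level of 2 to 4 on the log2(FPKM + 1) scale, transcripts under 1200 bases had a median of 0.84 as deposited and those of 4500 bases or more had -0.27. At a mean level of 6 to 8, the medians were -0.30 and -0.85. GC content went with the difference over all genes, and within level classes the gap was seen at low levels and narrowed at higher ones. As deposited, 1030 transcripts under 42% GC had a median of -0.43, and 943 transcripts at 58% GC or more had 0.48. With equal sums these were 0.16 and 0.98. Within level classes the edges were 45% and 54% GC, so these gaps are not on the same edges as those over all genes. At a mean level of 0 to 2, transcripts under 45% GC had 0.11 and those at 54% GC or more had 0.81 as deposited. At a mean level of 2 to 4 these were -0.20 and 0.60, and at 4 to 6 they were -0.44 and -0.15. At a mean level of 6 to 8 the medians were -0.68 and -0.69, and at 8 or more they were -0.78 and -0.84, so that the gap was not seen among abundant messages. At the secondary follicle the GC medians ran from -0.12 to 0.13. Length and GC content are known to affect library preparation and amplification as well as message stability, and their part in the difference was not tested.

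The ends of the 3'UTR differed as well. The words TTTTAT or TTTTAAT, the usual spelling of the cytoplasmic polyadenylation element, were searched on the transcript strand in the last 100 bases of each 3'UTR. They were found in 17.9% of 19338 coding transcripts of that length and in 22.0% of the 9128 compared ones. Of the genes lower in culture, 77 of 195 (39.5%) held them, against 1820 of 7427 (24.5%) of the genes not past 2-fold and 110 of 1506 (7.30%) of the genes higher in culture. The median MII difference was -0.60 with the letters and 0.04 without them as deposited. With equal sums it was 0.58 without them and close to 0 with them. The secondary follicle medians were 0.00 with and 0.01 without.

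The following sites show the letters in 5 messages that were higher at MII than at the secondary follicle in both routes, as DNA letters 5' to 3' on the transcript strand, with the element in capitals (in Bub1b the polyadenylation signal AATAAA, which follows it directly, is in capitals too).
Btg4, chr9:51119795-51119824, plus strand: aaagataaatccctTTTTATgtctttttaa
Plat, chr8:22782745-22782771, plus strand: gtatatttataTTTTAATctattttag
Bub1b, chr2:118641551-118641580, plus strand: cctttcactgtgtaTTTTATAATAAAatag
Aurkc, chr7:7003034-7003063, plus strand: tcgcttgttttctcTTTTATgaagtgatgt
Gdf9, chr11:53437852-53437881, plus strand: tcagagtgctgtggTTTTATgtgacggaag

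The sites above and the next ones were picked by different rules, so they do not set genes lower in culture against higher ones. Of the messages above, Aurkc was lower in culture, while Btg4, Bub1b and Gdf9 were not past 2-fold under both scalings. The next sites come from 4 messages higher in culture whose last bases hold no such letters. Here only the polyadenylation signal AATAAA is in capitals.
Zp2, chr7:120132362-120132388, minus strand: ttggacttgcaAATAAAgagactgcag
Npm2, chr14:70647306-70647335, minus strand: tcgcctagggccacAATAAAatttgcatga
Padi6, chr4:140727363-140727392, minus strand: attgccatagagccAATAAAgcatggtatt
Uchl1, chr5:66687194-66687223, plus strand: tccttaagaggaagAATAAAactttgctgg

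The annotated 3'UTR of Zp2 has only 49 bases, so Zp2 was outside the counts of the element above, and the lack of the letters there covers those bases alone. All coordinates are those of GRCm38, and the sites lie in exonic 3'UTR sequence as GENCODE M21 gives it. A match is a description of letters. Within the messages printed, Btg4 stood at 4441% of its secondary follicle value in vivo and 1991% in vitro, and Zp2 at 0.977% in vivo and 16.7% in vitro. Mos and Ccnb1, whose messages are known to be lengthened during maturation, had no match in the annotated last 100 bases.

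Base composition and abundance moved with the motif, so both were held within classes. At a mean level of 2 to 4, the median was -0.39 with the element and 0.21 without it as deposited. At a mean level of 8 or more it was -0.84 with and -0.78 without, a small gap. Where the last 100 bases had under 30% GC, it was -0.64 with and -0.34 without. The 5 other orders of the letters of TTTTAT showed gaps of the same direction. TTTTTA was found in 7.97% of the higher, 22.5% of the genes not past 2-fold and 35.9% of the lower genes, and TTATTT in 10.1%, 16.6% and 22.1%. The reverse complement of the element was found in 35.1%, 40.3% and 42.1%. The polyadenylation signal AATAAA was found in 58.1%, 70.3% and 75.4%, and the word TATTTAT in 3.45%, 5.06% and 5.64%. Both ran in the same order as the element, so the order is not particular to it. The Pumilio-type word TGTANATA was found in 4.98%, 5.59% and 4.62%, with no such order.

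**Figure D4:**
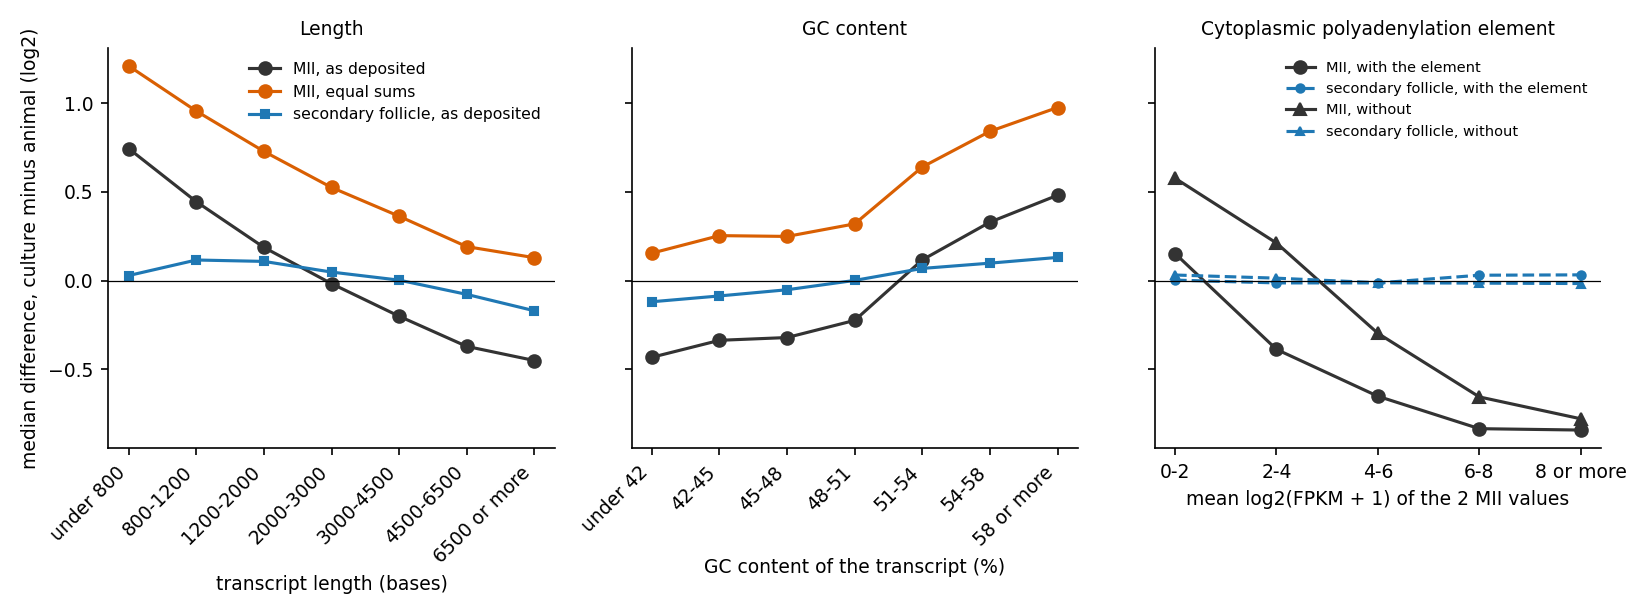
The y axis is the median difference, culture minus animal, in log2 units, against classes of transcript length, of GC content, and of mean MII level with and without a cytoplasmic polyadenylation element. MII medians fall with length from 0.74 to -0.45 and rise with GC content from -0.43 to 0.48 as deposited, and at each level class the genes with the element lie below those without, while secondary follicle medians by length and GC content lie between -0.17 and 0.13.

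For the roles of these genes, 45 lists of known members were used. Their medians are set beside the all-gene medians of -0.12 as deposited and 0.44 with equal sums, and their counts beside the 17.2% higher and 2.21% lower of all genes. A list with 0 lower under both scalings can hold members lower as deposited, as did 6 of the 35 maternal-effect genes. As deposited 22 lists had a median above 0 and with equal sums 40 did, and 18 changed sign between the scalings. Under all 13 settings tried, 22 lists lay above the all-gene median and 9 below it. A shift common to all genes cancels in such a position by construction, so the settings are not separate checks. Centring on the all-gene median repeats the deposited positions, and without a pseudocount scaling to equal sums leaves them unchanged. Some margins were small, such as 0.0017 for oocyte secreted factors with 5 added to each FPKM in place of 1.

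**Figure D5:**
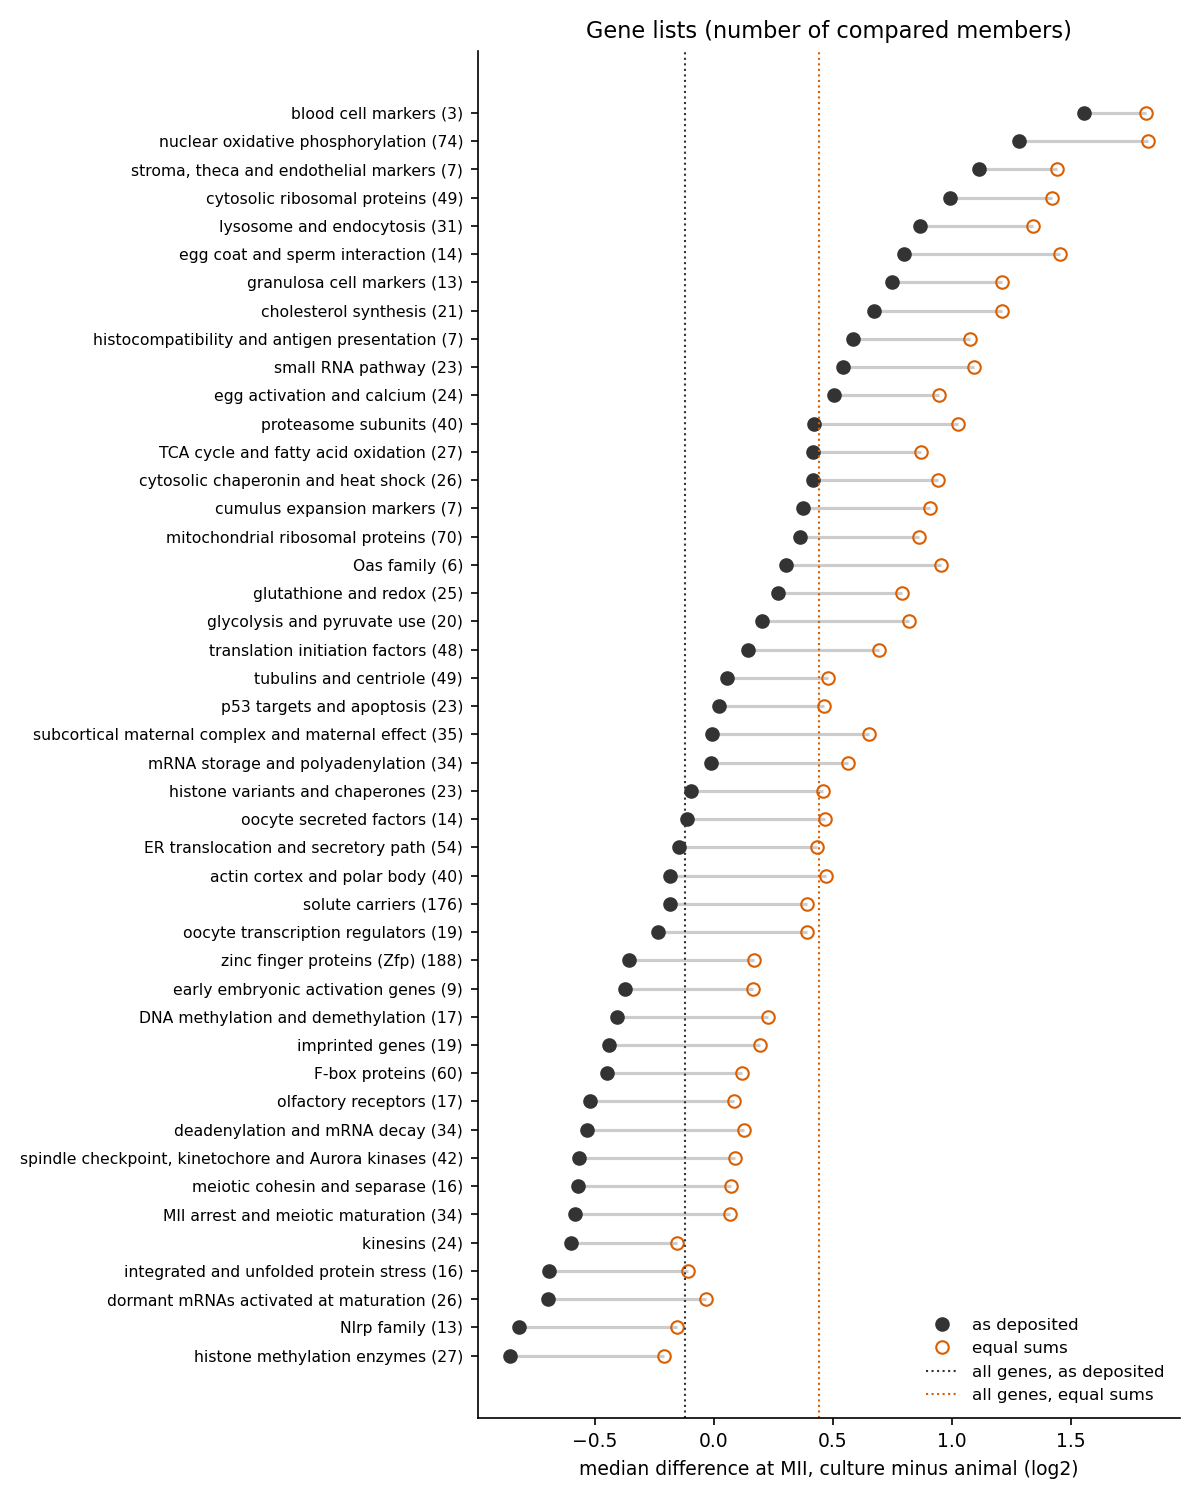
For each gene list the filled point gives the median MII difference as deposited and the open point that with equal sums, in log2 units, with the number of compared members in brackets and dotted lines for all genes. Oxidative phosphorylation (1.28 as deposited) and ribosomal proteins (0.99) lie near the top, and kinesins (-0.60), dormant mRNAs (-0.69) and histone methylation enzymes (-0.86) near the bottom.

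Genes of the MII arrest and of meiotic maturation held both abundant messages within 2-fold with equal sums and messages higher in culture. Cytostatic factor, which holds the arrest, consists of the Mos kinase cascade and of Emi2, encoded by Fbxo43, which blocks the anaphase-promoting complex. The list of 34 genes had a median of -0.58 as deposited and 0.07 with equal sums, with 8 higher and 0 lower. Mos differed by -0.88 as deposited and -0.22 with equal sums. Fbxo43 was at 234 FPKM in vitro and 451 FPKM in vivo, and Ccnb1, which encodes cyclin B1, at 301 and 589 FPKM. With equal sums these differed by -0.28 and -0.30.

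The 8 higher members stood well below their secondary follicle values in vivo. Mapk3 (ERK1, the kinase at the end of the Mos cascade) was at 173 and 194 FPKM in the secondary follicle oocytes and at 146 FPKM in vitro and 13.5 FPKM in vivo at MII, a difference of 3.33. Cdc25b, the phosphatase that starts the resumption of meiosis, was at 37.7 FPKM in vitro and 1.93 FPKM in vivo. Fbxo5 (Emi1), an earlier inhibitor of the anaphase-promoting complex, was at 23.2 and 2.34 FPKM. Fzr1 (Cdh1), an activator of that complex in prophase arrest, was higher by 2.18. The others act in M phase. Cdk1, the catalytic partner of cyclin B, was at 2.27 FPKM in vitro and 0.193 FPKM in vivo, a difference of 1.45 as deposited. Ensa, an inhibitor of the phosphatase PP2A, was at 14.4 and 0.788 FPKM. Anapc5, a subunit of the anaphase-promoting complex, was at 91.2 and 27.1 FPKM, and Ube2c, an E2 enzyme that works with it, at 114 and 44.3 FPKM.

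Spindle and kinetochore genes went both ways. Of 42, 7 were higher and 4 lower, against 17.2% and 2.21% of all genes. Their median was -0.57 as deposited and 0.09 with equal sums. Aurkc, the Aurora kinase particular to germ cells, was at 32.2 FPKM in vitro and 179 FPKM in vivo, a difference of -2.44 as deposited and -1.79 with equal sums. In the secondary follicle oocytes it was at 9.50 and 13.2 FPKM, so the message was higher at MII in both routes. Aurka was at 255 and 238 FPKM and Aurkb at 13.4 and 11.1 FPKM, without such a gap. Birc5 (survivin), a partner of the Aurora kinases, stood the other way at 355 FPKM in vitro and 83.9 FPKM in vivo.

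The other lower members build kinetochores and microtubules. Ckap5, a microtubule polymerase, was at 61.7 FPKM in vitro and 232 FPKM in vivo. Ndc80, which couples kinetochores to microtubules, was at 44.3 and 152 FPKM, and the kinetochore motor Cenpe at 62.3 and 206 FPKM. All of these stood below 25 FPKM at the secondary follicle. Tacc3, which works with Ckap5, was at 376 and 385 FPKM at the secondary follicle and at 11.2 FPKM in vitro and 1.27 FPKM in vivo at MII. Bub1b, a spindle checkpoint kinase, was at 777 FPKM in vitro and 2303 FPKM in vivo, which was past 2-fold as deposited and within it with equal sums (-1.57 and -0.90). Of 16 cohesin and separase genes, 0 were past 2-fold under both scalings. Pttg1, which encodes securin, was at 3823 FPKM in vitro and 3231 FPKM in vivo.

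The zona genes and several sperm-binding genes were higher in culture. Of the 14 in this list, 7 were higher, 7 were not past 2-fold under both scalings and 0 were lower, with a median of 0.80 as deposited and 1.46 with equal sums. The zona pellucida is built while the oocyte grows, and its messages are known to be lost at maturation. Zp3 was at 5094 FPKM in vitro and 5544 FPKM in vivo in the secondary follicle oocytes, and at 739 and 79.8 FPKM at MII, which is 14.5% and 1.44% of the earlier values. Zp1 stood at 23.7% of its earlier value in vitro and 1.79% in vivo. Fetub, which encodes fetuin-B, an inhibitor of zona hardening, was at 65.6 FPKM in vitro and 5.00 FPKM in vivo, and Astl, which encodes ovastacin, the protease it restrains, was at 536 and 428 FPKM, within 2-fold under both scalings.

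Receptors for sperm followed. Folr4 (Juno, the egg receptor for Izumo1) was at 106 FPKM in vitro and 43.2 FPKM in vivo, a difference of 1.27. Cd9, a membrane protein needed for fusion, was at 44.3 and 5.66 FPKM. Uchl1, an ubiquitin hydrolase of the egg cortex, was at 1792 FPKM in vitro and 576 FPKM in vivo. The secreted oocyte proteins Oosp1 and Oosp3, also of this list, were not higher: Oosp1 was at 5368 FPKM in vitro and 10415 FPKM in vivo.

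Egg activation relies on calcium released through Itpr1 and read by calmodulin and its kinase. Of 24 genes in this list 8 were higher and 0 lower, with a median of 0.51 as deposited and 0.95 with equal sums. Camk2g, the calmodulin kinase of the egg, was at 71.1 FPKM in vitro and 14.6 FPKM in vivo. Calm2 was at 49.5 and 9.51 FPKM, although reads of the calmodulin genes, whose coding sequences are alike, may be divided uncertainly. The receptor Itpr1 itself stood at 24.6 FPKM in vitro and 64.0 FPKM in vivo, past 2-fold as deposited (-1.35) and within it with equal sums (-0.70). Slc39a6, a zinc importer, was at 42.8 and 7.83 FPKM.

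The subcortical maternal complex is a protein assembly that the embryo needs for its first divisions. All of its long-known parts in the list, Nlrp5, Ooep, Tle6, Khdc3 and Padi6, were higher in culture. Ooep was at 285 FPKM in vitro and 51.9 FPKM in vivo, Khdc3 at 131 and 32.9 FPKM and Tle6 at 255 and 112 FPKM. Each had more than 1000 FPKM in both secondary follicle columns. Zbed3 ran the other way, with -1.04 as deposited and -0.38 with equal sums. Over the whole list of 35 maternal-effect genes 10 were higher and 0 lower, and the median was -0.01 as deposited and 0.65 with equal sums.

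Other members of that list lay close to parity as deposited. Dppa3 (Stella), which protects the maternal genome from demethylation, was at 835 FPKM in vitro and 839 FPKM in vivo. Pou5f1 (Oct4) was at 220 and 233 FPKM, and Zar1 at 1133 and 1171 FPKM. Npm2, the histone chaperone that opens sperm chromatin, did not, and was at 283 FPKM in vitro and 19.0 FPKM in vivo.

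Genes that act on messenger RNA itself were divided by role. Of 34 deadenylation and decay genes 2 were higher and 1 lower, with a median of -0.53 as deposited and 0.13 with equal sums. Btg4, the adaptor that brings the deadenylase to maternal messages at maturation, was at 5370 FPKM in vitro and 10543 FPKM in vivo (-0.97 and -0.31). Its partners showed the same band, with Cnot7 at 1250 and 1839 FPKM and Cnot6l at 267 and 435 FPKM. So did the decapping factor Dcp1a, at 1473 and 2678 FPKM. Pan3, of the other deadenylase complex, was lower, at 83.4 FPKM in vitro and 294 FPKM in vivo.

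Of 34 storage and polyadenylation genes 6 were higher and 2 lower, against 17.2% and 2.21% of all genes. Their medians were -0.01 and 0.56. Ybx2 (Msy2), the RNA-binding protein that packs stored messages in growing oocytes, was at 153 FPKM in vitro and 35.7 FPKM in vivo. Pabpc1l, the embryonic poly(A)-binding protein, was at 37.0 and 9.03 FPKM. Paip2, an inhibitor of poly(A)-binding protein, was outside the list and was at 116 FPKM in vitro and 6.73 FPKM in vivo, from 120 and 124 FPKM at the secondary follicle. Cpeb1 was at 107 and 59.9 FPKM, within 2-fold as deposited (0.82) and past it with equal sums (1.48). Cstf1, of the cleavage complex, and Msi2 were lower, and Cstf1 was at 60.1 FPKM in vitro and 212 FPKM in vivo.

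The list named for messages dormant until maturation had 26 compared members, not all of which need behave in that way. Their median was -0.69 as deposited and -0.03 with equal sums, with 3 higher and 0 lower. The 3 were Zp2, Gtsf1 and Nlrp5, which all stood far below their secondary follicle values at MII in both routes. Plat, which encodes tissue plasminogen activator and is the classic dormant message, was at 162 and 173 FPKM at the secondary follicle and at 3607 FPKM in vitro and 7176 FPKM in vivo at MII.

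Transcription regulators of the oocyte were past 2-fold in 2 of 19 genes, both higher. Nobox was at 47.7 FPKM in vitro and 13.5 FPKM in vivo and Lhx8 at 39.3 and 12.1 FPKM. Both drive genes of the growing oocyte. Figla, which drives the zona genes, was at 4.37 FPKM in vitro and 1.76 FPKM in vivo, from 65.3 and 117 FPKM at the secondary follicle. Among secreted factors, Bmp15 stood apart from its partner Gdf9: it was at 1098 FPKM in vitro and 749 FPKM in vivo (0.55 as deposited, 1.21 with equal sums), against -0.72 and -0.06 for Gdf9.

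Few chromatin genes were past 2-fold under both scalings. Of 17 DNA methylation genes 1 was higher and 0 lower. That 1 was Dnmt3l, the cofactor of de novo methylation in growing oocytes, at 147 FPKM in vitro and 15.6 FPKM in vivo, a difference of 3.16. Its MII value was 237% of the secondary follicle value in vitro and 28.5% in vivo. Tet3, which oxidises methylcytosine, was at 847 and 1937 FPKM (-1.19 and -0.53), and Dnmt1 at 334 and 279 FPKM. Histone methylation enzymes had the lowest median of the 45 lists as deposited and with equal sums, -0.86 and -0.21 over 27 genes, with 2 higher (Kdm2b and Ehmt2) and 1 lower. That was Setd2, the H3K36 methyltransferase, at 38.1 FPKM in vitro and 141 FPKM in vivo. Of 19 imprinted genes 1 was higher, Gnas, at 269 FPKM in vitro and 38.6 FPKM in vivo.

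Messages for oxidative phosphorylation were mostly higher in culture. Of 74 nuclear genes of oxidative phosphorylation 45 were higher and 0 lower under both scalings, with a median of 1.28 as deposited and 1.82 with equal sums. Ndufa1, of complex I, was at 106 FPKM in vitro and 11.7 FPKM in vivo, and Cox6a1, of complex IV, at 207 and 25.2 FPKM. Ndufa4 was at 427 FPKM in vitro and 118 FPKM in vivo. At the secondary follicle these 3 lay between 74.5 and 276 FPKM in both columns.

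Other members of the same complexes were not past 2-fold under both scalings. Cox5a was at 165 FPKM in vitro and 171 FPKM in vivo, Cox8a at 236 and 260 FPKM, and Atp5b, the catalytic subunit of ATP synthase, at 341 and 452 FPKM. Sdha, of complex II, was at 76.5 FPKM in vitro and 178 FPKM in vivo, past 2-fold as deposited and within it with equal sums. The median transcript of this list had 875 bases, against 3013 bases for all compared genes, and the part of length in the group's count was not tested. In the same way the cytosolic ribosomal protein list had a median of 910 bases and the histone methylation list, described above, 5918 bases.

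Other metabolic lists had smaller shares, to be read against the 17.2% of all genes. Of 20 glycolysis and pyruvate genes 7 were higher, among them Ldhb, the lactate dehydrogenase of oocytes, at 1724 FPKM in vitro and 379 FPKM in vivo. Of 27 genes of the citric acid cycle and fatty acid oxidation 6 were higher and 1, Hadh, was lower. Of 21 cholesterol synthesis genes 5 were higher, and the first of them, Fdft1 (squalene synthase), was at 22.8 and 1.35 FPKM. Of 25 glutathione and redox genes 7 were higher, among them the peroxiredoxin Prdx2 at 360 FPKM in vitro and 149 FPKM in vivo. The medians of these 4 lists were from 0.20 to 0.67 as deposited.

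The lists of protein synthesis and turnover differed in their shares. Of 49 compared cytosolic ribosomal proteins 24 were higher and 0 lower, with medians of 0.99 and 1.42, although pseudogene copies make their FPKM uncertain. Rplp1 was at 225 FPKM in vitro and 60.3 FPKM in vivo. Mitochondrial ribosomal proteins were higher in 18 of 70 and initiation factors in 12 of 48, with 0 lower in both lists. Of 40 proteasome genes 13 were higher, among them the catalytic subunit Psmb7 at 10.8 and 0.788 FPKM, and 1 was lower, the assembly chaperone Psmg3 at 7.58 FPKM in vitro and 30.7 FPKM in vivo.

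The chaperones held an opposite pair. Hsp90ab1, the cytosolic HSP90, was at 227 FPKM in vitro and 834 FPKM in vivo, lower by 1.87 as deposited and 1.21 with equal sums. Its counterpart of the endoplasmic reticulum, Hsp90b1, was at 68.3 FPKM in vitro and 13.7 FPKM in vivo. Hspa5 (BiP) was at 65.0 and 14.0 FPKM and Calr (calreticulin) at 131 and 13.5 FPKM. These are the chaperones of secreted proteins, and 17 of 54 genes of the secretory path were higher and 0 lower, while the median of that list, -0.14 as deposited and 0.43 with equal sums, was close to that of all genes. The 16 genes of the integrated and unfolded protein stress responses had a median of -0.69 as deposited and -0.11 with equal sums. Only Hspa5 and Atf4 among them were higher, and Atf4 was at 58.6 FPKM in vitro and 25.9 FPKM in vivo.

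Lysosome and endocytosis genes were higher in 15 of 31, with medians of 0.87 and 1.34. Cst3 (cystatin C), a protease inhibitor, was at 41.9 FPKM in vitro and 0.958 FPKM in vivo, from 119 and 124 FPKM. The 1 lower member was Npc1, a cholesterol exporter, at 147 and 491 FPKM. Of 40 actin genes 8 were higher, against 17.2% of all genes, among them the severing factor Cfl1 (cofilin) at 145 and 25.2 FPKM. The beta-actin gene Actb was at 32.4 FPKM in vitro and 7.57 FPKM in vivo at MII, and at 116 and 243 FPKM at the secondary follicle, so that its direction differed between stages. Of 49 tubulin and centriole genes 7 were higher and 2 lower, against 17.2% and 2.21% of all genes. Tubb2a was at 230 and 38.8 FPKM and the centriole protein Cep135 at 6.14 and 76.7 FPKM, with Tubb2a sharing sequence with its copies.

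Large families held both directions, as did all genes (17.2% higher and 2.21% lower). Among 188 Zfp zinc finger genes 7 were higher and 5 lower, with a median of -0.36 as deposited and 0.17 with equal sums. Among 176 solute carriers 30 were higher and 8 lower. Among 60 F-box genes 9 were higher and 1, Fbxo33, was lower. The higher counts of the solute carriers and F-box genes were near the share of all genes. The oocyte Oas1 genes divided within 1 family: Oas1c was at 149 FPKM in vitro and 13.6 FPKM in vivo, Oas1d at 2336 and 4107 FPKM and Oas1b at 3.54 and 13.8 FPKM. Oas1f, at 6.67 and 1.31 FPKM, and Oas1h, at 55.2 and 23.3 FPKM, were higher with Oas1c, and Oas1e was within 2-fold at 316 and 481 FPKM, while the similarity of these genes makes the division of reads uncertain. The list named for histocompatibility and antigen presentation had 7 compared members, not all of which need act in that role. H2-K1, at 49.9 and 15.5 FPKM, and H2-D1, at 1.98 and 0.123 FPKM, were higher. H2-Aa, B2m, Tap2, Tapbp and H2-Ke6 were not past 2-fold under both scalings.

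The genes highest in culture by rank, with at least 10 FPKM, were led by Bfsp1, a lens filament protein, at 57.7 FPKM in vitro and 0.923 FPKM in vivo, a difference of 4.93. Hint1, a nucleotide hydrolase, followed at 65.2 and 1.44 FPKM. In the secondary follicle oocytes Bfsp1 was at 157 and 79.5 FPKM and Hint1 at 269 and 177 FPKM. Lgals1 (galectin 1) was at 42.9 FPKM in vitro and 0.679 FPKM in vivo, and Ptgds (a prostaglandin synthase) differed by 4.51. These 2 and Cd52 were the members of the 15 with under 10 FPKM in both secondary follicle columns. Cst3, Pinlyp, Tmsb10, Ergic3, Sec23ip, Fxyd6, Paip2, Cd52, Ndufa5, Npm2 and Puf60 completed the 15.

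The genes lowest in culture were led by Pdxdc1, which stood at 56.0 and 55.1 FPKM in the secondary follicle oocytes and at 5.43 FPKM in vitro and 101 FPKM in vivo at MII, a difference of -3.99. It was thus at 9.70% of its earlier value in vitro and at 184% in vivo. Cxcr3, a chemokine receptor, was at 11.3 FPKM in vitro and 114 FPKM in vivo, from 1.36 and 0.929 FPKM. Btc (betacellulin), a ligand of the EGF receptor, was at 0.145 FPKM in vitro and 11.5 FPKM in vivo and listed at 0 in both secondary follicle columns. S100a14 was at 20.8 and 143 FPKM, and Hmgn3, a nucleosome-binding protein, at 14.3 and 136 FPKM. Mamdc2, Tmem181c-ps, Olfr1349, Plek, Cep135, Alg8, Slc19a2, Flt1, Utrn and Tuba3b completed the 15, and of the 15 all but Pdxdc1 were under 20 FPKM in both secondary follicle columns.

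A set of 113 genes was under 1 FPKM in both secondary follicle columns and reached 10 FPKM in an MII column. Their median was -1.01 as deposited and -0.38 with equal sums, with 14 higher and 26 lower. Of all compared genes 17.2% were higher and 2.21% lower. Of the 967 compared genes under 1 FPKM in both secondary follicle columns, 114 were higher and 78 lower. A gene could enter the set through its higher MII column alone, so these calls follow in part from the rule for entry. Lower were Mamdc2, at 0.682 FPKM in vitro and 21.9 FPKM in vivo, Plek, at 0.765 and 18.9 FPKM, and the VEGF receptor Flt1, at 0.862 and 14.3 FPKM. Secreted signalling proteins were among them, such as Shh at 3.49 and 12.4 FPKM and the netrin Ntn1 at 3.99 and 16.2 FPKM. Higher were Cd52, a leukocyte surface protein, at 14.1 FPKM in vitro and listed at 0 in vivo, S100a6 at 22.3 and 1.51 FPKM and the stress gene Nupr1 at 75.9 and 18.7 FPKM.

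Several of these genes are known from somatic cells, so markers of other cells were read as whole lists. Cumulus cells surround the egg, and from the in vitro oocytes they were stripped with hyaluronidase. Of 21 granulosa markers, 13 reached 1 FPKM in vitro and 10 in vivo at MII, and their summed level was 667 FPKM in vitro and 831 FPKM in vivo, or 129 and 113 FPKM without Serpine2, the highest of them. At the secondary follicle the sums were 199 and 173 FPKM. Fshr was listed at 0 in both MII columns, Amh was at 0.0509 and 0.297 FPKM and Foxl2 at 0.647 and 0.0489 FPKM. Of the 13 compared, 5 were higher and 0 lower: Inha was at 19.3 FPKM in vitro and 2.55 FPKM in vivo, and Hsd3b1, Gja1, Inhba and Cyp11a1 were the others. Among those not called, several stood below the in vivo value. Cyp19a1 was at 27.1 and 42.2 FPKM, Esr2 at 28.3 and 36.5 FPKM, Nr5a2 at 8.01 and 10.5 FPKM and Kitl at 4.53 and 7.96 FPKM. Serpine2 did so too, while Fst, Hsd17b1 and Nr5a1 stood above it.

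Markers of cumulus expansion, the response of cumulus cells to ovulation, were present at low levels in both. Of 19, 5 reached 1 FPKM in vitro and 7 in vivo, with sums of 26.0 and 29.9 FPKM against 4.88 and 5.43 FPKM at the secondary follicle. Has2 was at 2.10 and 1.04 FPKM, Ptgs2 at 4.77 and 3.45 FPKM and Tnfaip6 at 5.91 and 4.18 FPKM, all within 2-fold as deposited. Ptx3 was at 0.787 and 1.82 FPKM and Tnc at 1.68 and 2.15 FPKM. The 1 member called was Btc, which was lower and made up 11.5 FPKM of the in vivo sum, and Egfr was the highest in vitro. Without the highest member of each column the sums were 18.7 and 18.4 FPKM. Of 21 stroma, theca and endothelial markers 6 reached 1 FPKM in vitro and 5 in vivo, and without Pecam1, at 78.1 and 117 FPKM, their sums were 33.5 and 9.49 FPKM. Of the 7 compared, 4 were higher: Vim was at 14.9 and 2.24 FPKM, Sparc at 10.5 and 1.70 FPKM, and Tek and Acta2 were the others. Kdr, a VEGF receptor of endothelium, was lower, at 0.279 FPKM in vitro and 3.14 FPKM in vivo, and Pecam1 and Fn1 were within 2-fold. Of 18 blood cell markers 3 reached 1 FPKM in vitro and 1 in vivo, with sums of 19.6 and 2.64 FPKM, and 14 and 11 were listed at 0. Without the highest member of each column, Cd52 in vitro and Cd68 in vivo, the sums were 5.57 and 0.821 FPKM. Laptm5, at 1.99 and 0.0172 FPKM, was higher beside Cd52. In such pooled material fewer cells of a type and less RNA per cell cannot be told apart, and the part of these cells in the differences above was not tested.

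Most genes past 2-fold at MII were within it earlier, while genes past it earlier were more often past it at MII than genes in general. Of 9357 genes compared at both stages, 1658 (17.7%) were higher in culture at MII, and of these 86 were also higher at the secondary follicle, 5 were lower and 1567 were within 2-fold there. The 86 were 5.19% of the genes higher at MII and 41.1% of the 209 higher at the secondary follicle. Of the 150 genes (1.60%) lower at MII, 17 were also lower at the secondary follicle, 4 were higher and 129 were within 2-fold. The 17 were 11.3% of the genes lower at MII and 27.9% of the 61 lower at the secondary follicle. Genes lower at both stages included Hmgn3, at 2.46 and 18.2 FPKM in the secondary follicle oocytes, Slc39a8, at 0.0155 and 3.96 FPKM, and Slc26a5, at 0.403 and 22.4 FPKM. They also included Adam10, a membrane protease, at 75.2 FPKM in vitro and 256 FPKM in vivo at MII and at 11.5 and 25.2 FPKM before. Adam8, Grb7 and Pla2g12b were higher in culture at the secondary follicle and lower at MII: Adam8 was at 3.68 and 0.927 FPKM and then at 7.92 and 40.6 FPKM.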

How the data were processed

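Poly(A) RNA of pooled mouse oocytes was sequenced in directional libraries. Per the submitters' processing notes, reads were handled with TopHat2, Bowtie2 2.0.13, Cufflinks and Cuffdiff 2.2.1, and the build was mm10. The unit of the table the authors deposited is FPKM, with 1 pooled value per gene and group in 8 columns, so that no error, p-value or depth could be computed and the limma fit planned for values per sample was not run. Use of the strand in counting was not stated per the labels.

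Differences were taken as log2(FPKM + 1) with a pseudocount of 1, over genes with at least 1 FPKM in either MII column, and were counted from 2-fold. For equal sums both columns were scaled to 795833 FPKM, the mean of their sums, before the pseudocount. A gene held under both scalings where it was past 2-fold the same way in each. The members, gene lists and rules were chosen with earlier results of these data known. Of 903 symbols in 45 lists 874 were in the table. The rule for named genes took the 15 highest and 15 lowest genes with at least 10 FPKM past 2-fold under both scalings and no predicted, clone or RIKEN name, up to 6 such members of each list, whole lists of 8 or fewer compared members, and a set of oocyte and cumulus genes. Not every gene this rule names is printed, and other genes were chosen after their values were seen. The steps were tested on simulated data. Python 3.11.15, pandas 2.3.3, NumPy 2.4.6 and matplotlib 3.10.9 were used, and transcripts came from GENCODE M21.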

Additional observations from a re-analysis of the deposited data

How the results depend on the processing

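As reported, 1772 genes were higher, 1346 lower, and the median difference was -0.12. Scaling moved the balance. With equal sums there were 3093 higher and 228 lower with a median of 0.44. Scaling by the median ratio over 4413 genes gave 2882 and 267 with 0.38. Chosen after the data were seen, equal sums of 1000000 FPKM gave 3280 and 252 with 0.46, and equal sums at the lower sum 2831 and 201 with 0.42. Equal sums with no pseudocount gave 2479 and 227 with 0.37.

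The treatment of low values moved the balance as well. A pseudocount of 5 gave 642 higher and 844 lower, and a filter of 5 FPKM 1081 and 1232. With no pseudocount, over 8497 genes at 1 FPKM or more in both columns, 1326 were higher and 1474 lower. More genes stayed higher than lower with a pseudocount of 0.1 (2508 and 1701) and with quantile normalization (1335 and 1104). The median was -0.14 with a pseudocount of 0.1, -0.074 with 5, -0.40 with the filter of 5 FPKM, -0.065 with quantile normalization and -0.30 with no pseudocount. It was 0 with no filter and, by construction, with median centring.

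Of the 1772 higher and 228 lower genes, 642 and 159 were past 2-fold with a pseudocount of 5, 1211 and 227 with quantile normalization, and 1772 and 201 at the lower equal sum. Of 168 named higher genes 120 were past it with a pseudocount of 5, and of 40 named lower genes 33. No named gene turned its direction past 2-fold under any of these settings.

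No paired analysis was possible because the columns pool the replicates. Leaving out each replicate was not run, since no values per replicate were at hand, and the depth is unknown.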

Other observations

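By chromosome, the median MII difference as deposited ran from -0.31 on chromosome 12 (348 genes) to 0.08 on chromosome 19 (326 genes), and the median GC content of the transcripts was 48.6% and 52.2%. The X chromosome, with 315 genes, had a median of -0.13, close to the -0.12 of all genes, at a median GC content of 45.5%.

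At the ends of the 3'UTR, the share of messages with TTTTAT or TTTTAAT differed between lists. It was 7 of 16 for DNA methylation genes and 10 of 25 for histone methylation enzymes, against 6 of 55 for oxidative phosphorylation genes. Other lists broke this order. Cytosolic ribosomal proteins had 6 of 24 and lysosome and endocytosis genes 8 of 30, with median differences above that of all genes. Cohesin and separase genes had 1 of 11 and kinesins 4 of 22, with medians below that of all genes. Over all compared genes the share was 22.0%.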
